A study of Mus musculus with 12 samples.

Results

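The genes described here are the 4 receptors of the ERBB family, Egfr, Erbb2, Erbb3 and Erbb4, and Nrg1, the gene of the ligand neuregulin 1. They were chosen by name, and the set was proposed because Erbb3 had been seen to be higher after LOXL2 knockdown in these same arrays, so the knockdown values of the set are a description and carry no test. All 5 symbols were found, each on 1 transcript cluster (a group of probes read as 1 transcript) annotated to that gene alone, among 22180 genes measured. The cells were E14, a mouse embryonic stem cell line, transduced with 1 of 2 constructs. One carried a control short hairpin RNA (shCT) and the other a short hairpin RNA named for LOXL2, an enzyme of the lysyl oxidase family (shLOXL2). Each was profiled at day 0 without RA, read here as retinoic acid, and at day 1 with RA. This gave 4 groups of 3 arrays: shCT without RA, shCT with RA, shLOXL2 without RA and shLOXL2 with RA. No untreated group at day 1 is analysed here, so the effect of RA and that of 1 day in culture cannot be told apart. The labels name a single shLOXL2 construct in 1 line. They do not state what separates the replicates of a group, and the p-values reflect only how far these 12 samples scatter, which may be technical scatter.

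ERBB receptors are tyrosine kinases at the cell surface that signal as pairs. EGFR binds EGF, TGF-alpha and related ligands, ERBB3 and ERBB4 bind neuregulins, and ERBB2 has no known ligand of its own and acts as the preferred partner of the others. ERBB3 has a weak kinase and depends on its partner for phosphorylation, after which it docks the regulatory subunits of PI3 kinase. Neuregulin signalling through ERBB2 and ERBB3 is best known from Schwann cells and their neural crest precursors, and that through ERBB2 and ERBB4 from the developing heart.

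The arrays had medians of 4.58 to 4.68 on the log2 scale and correlated with each other at 0.939 to 0.985. Loxl2 itself could be read only on 2 clusters shared with the predicted gene Gm21451. Averaged over both RA states they stood at 60.0% and 65.0% of the control signal in shLOXL2 cells. The first differed by -0.56 on the log2 scale without RA and by -0.91 with RA. The second differed by -1.08 with RA but by only -0.15 without RA, where its arrays overlapped (4.58 to 5.27 in shCT and 4.58 to 5.03 in shLOXL2 cells). All 8 embryonic stem cell markers examined (Pou5f1, Nanog and others) were above the lowest array median in every group mean. Their mean per array ran from 8.83 to 9.09 in shCT cells and from 8.89 to 8.95 in shLOXL2 cells without RA. With RA it ran from 8.52 to 8.66 and from 8.46 to 8.67. A set of 4 arrays, replicate 3 of both shCT groups and replicate 1 of both shLOXL2 groups, lay at one end of the main axis of variation within groups (scores of 0.27 to 0.436, the other 8 arrays from -0.504 to 0.0679), and the values that depend on them are given beside the results. Replicate 1 of shCT without RA lay farthest at the opposite end (-0.504). Its signal of the primitive endoderm gene Gata4 was 6.92, against 6.04 and 5.83 in the other arrays of its group. For Dab2, another such gene, it was 7.70, against 6.65 and 6.30. Replicate 1 of shCT with RA was also the highest of its group, at 6.96 for Gata4 and 7.42 for Dab2. The others of that group read 6.67 and 6.26 for Gata4 and 6.86 and 6.66 for Dab2. The RNA came from whole cultures, so fewer cells that express a gene and less RNA per cell cannot be told apart.

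Erbb3 was the member whose signal separated the groups. In shCT cells without RA its log2 signal was 6.28, 6.17 and 6.25 in replicates 1, 2 and 3, and with RA it was 6.41, 6.44 and 6.38. In shLOXL2 cells the values were 6.54, 6.83 and 6.95 without RA and 7.27, 7.12 and 7.12 with RA. Every array of a group thus lay above every array of the group before it in the order shCT without RA, shCT with RA, shLOXL2 without RA, shLOXL2 with RA. The group means in that order were 6.23 ± 0.0580, 6.41 ± 0.0321, 6.77 ± 0.207 and 7.17 ± 0.0855 (SD, n = 3). Only 2 of 22180 genes, 0.00902%, showed this stepwise order without any overlap, the other being Rnf19b, which encodes a ubiquitin ligase. The order includes the knockdown difference for which Erbb3 was picked, so this count describes the pattern and does not test it.

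**Figure D1:**
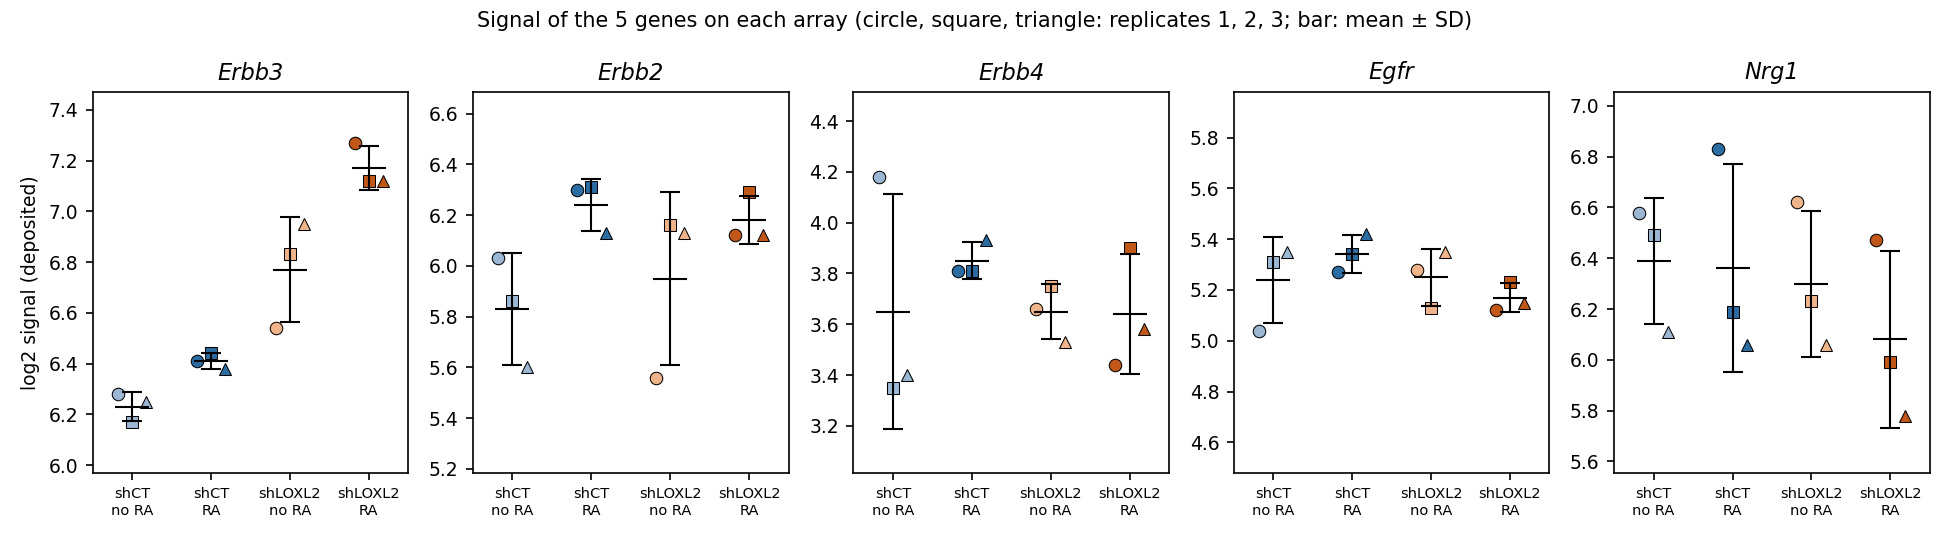
Log2 signal of Erbb3, Erbb2, Erbb4, Egfr and Nrg1 on each of the 12 arrays; the 3 symbols mark replicates 1, 2 and 3, the bars the mean and SD of each group, and every panel spans the same number of log2 units around its own centre. The 4 groups of Erbb3 do not overlap and climb from 6.17 to 7.27, while for Erbb4 and Nrg1 the groups with and without RA, and those of the 2 constructs, overlap.

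Averaged over both RA states, Erbb3 was 1.57-fold higher in shLOXL2 than in shCT cells (log2 difference 0.65 ± 0.0878, SE, interval 0.46 to 0.84 at 95% confidence). The difference was 0.54 ± 0.124 on the log2 scale without RA and 0.76 ± 0.124 with RA, which corresponds to 1.45-fold and 1.70-fold. All arrays of shLOXL2 lay above all arrays of shCT in both RA states, as they did for 188 of 22180 genes (0.848%). For knockdown on average 0.0541% of all genes passed the threshold used throughout, a limma p-value below 0.05 after Benjamini-Hochberg adjustment over all genes. Under other ways of processing and with any 1 array left out, the average log2 difference stayed between 0.61 and 0.71. Without the 4 arrays at one end of the axis the difference without RA was 0.66.

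Markers of the neural crest lineage, known for high Erbb3, were examined beside it. Of 9 neural crest and Schwann cell markers 7 were measured, 2 of them below the lowest array median. None passed the limma threshold for knockdown on average (1 at an unadjusted p under 0.05, beside 6.72% of all genes). The mean signal of these 7 genes per array ran from 4.74 to 4.89 in shCT and from 4.86 to 5.02 in shLOXL2 cells without RA, and from 4.93 to 5.12 and 4.84 to 5.03 with RA. Sox10, a neural crest regulator that activates Erbb3 in that lineage, is named after its values were seen. Its log2 signal was 4.75, 4.78 and 4.80 in shCT and 4.36, 4.27 and 4.45 in shLOXL2 cells without RA. These values lie near the array medians of 4.58 to 4.68. The knockdown difference of Sox10 on average was -0.36 ± 0.0889, the lowest of the 7 markers, and did not pass the threshold (limma adjusted p = 0.253). The highest was that of Tfap2a (0.29), and the median of the 7 was 0.00. The part of other cell types in the Erbb3 result was not tested.

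The genes whose signal over the 12 arrays was most like that of Erbb3 were, by Pearson correlation, Mypn (0.957), Lacc1 (0.943), Rnf19b (0.936), Ticrr (0.932) and Zfp592 (0.925). Predicted, numbered and accession-like symbols, microRNAs, small nucleolar RNAs and odour or pheromone receptors were left out of the ranking. Mypn encodes a sarcomere protein, Ticrr a regulator of DNA replication initiation and Lacc1 an enzyme of immune cell metabolism. These genes share the arrays and their normalization with Erbb3, and the correlations are a description. Mypn, the nearest, differed between constructs by 0.53 ± 0.0840 and with RA by 0.38 ± 0.0840 on the log2 scale. No other ERBB gene was among them. The correlation of Erbb3 was 0.398 with Erbb2, -0.162 with Erbb4, -0.380 with Egfr and -0.430 with Nrg1.

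The set was not chosen on its RA response, which was therefore tested. For Erbb3 it was small: Erbb3 was 1.22-fold higher with RA on average (log2 difference 0.29 ± 0.0878, SE, interval 0.10 to 0.48). The arrays with RA lay above those without RA in both constructs, as they did for 1035 of 22180 genes (4.67%). Relabelling RA within each construct in all 400 ways put the exact p, taken on both sides, at 0.005, which is as low as this test can go. The limma adjusted p over all genes was 0.0541 and missed the threshold, which 10.3% of all genes passed. In shCT cells the RA difference was 0.18 ± 0.124 (limma adjusted p = 0.548) and in shLOXL2 cells 0.40 ± 0.124 (limma adjusted p = 0.115). The RA response was larger in shLOXL2 than in shCT cells by 0.22 ± 0.176, with an interval from -0.15 to 0.60 (limma adjusted p = 1). Whether Erbb3 passed for RA depended on the setting. Its adjusted p on average ran from 0.0197 to 0.169 over 22 alternatives and was under 0.05 in 3 of them, among these the fit without replicate 3 of shLOXL2 without RA (0.0395). Without the 4 arrays at one end of the axis it was 0.169, at a difference of 0.22.

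Erbb2, the shared partner receptor, showed an RA difference of like size and no separation by construct. Its log2 signal was 6.03, 5.86 and 5.60 in shCT cells without RA and 6.30, 6.31 and 6.13 with RA. In shLOXL2 cells it was 5.56, 6.16 and 6.13 without RA and 6.12, 6.29 and 6.12 with RA. The shCT arrays with RA all lay above those without RA, as for 10.7% of genes, whereas the shLOXL2 groups overlapped. The lowest arrays, at 5.56 and 5.60, both belong to the 4 at one end of the axis. Averaged over constructs Erbb2 was 1.25-fold higher with RA (log2 difference 0.32 ± 0.119, interval 0.07 to 0.58). The exact two-sided p was 0.03 and the limma adjusted p 0.115, which missed the threshold. The difference was 0.41 ± 0.168 in shCT (limma adjusted p = 0.232) and 0.23 ± 0.168 in shLOXL2 cells (limma adjusted p = 0.604), and these responses differed by -0.18 ± 0.238 (limma adjusted p = 1). Without the 4 arrays the average was 0.21 and the difference in shLOXL2 cells 0.06. With construct and replicate number as a fixed block the average passed (limma adjusted p = 0.0403). In the order of the means, 5.83 ± 0.221 in shCT without RA, 5.95 ± 0.340 in shLOXL2 without RA, 6.18 ± 0.0951 in shLOXL2 with RA and 6.24 ± 0.101 in shCT with RA (SD, n = 3), no neighbours were separated. The knockdown difference of Erbb2 was 0.03 ± 0.119 on average, with an interval from -0.23 to 0.28.

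The promoter table of RefSeq (build GRCm38.p6) held 3 of the 5 members, Erbb2, Egfr and Erbb4, and not Erbb3 or Nrg1. The 250 bases before the annotated start are shown for Erbb2, which had the largest RA difference of the 5 genes on average, and for Egfr, which had the smallest. The Erbb2 window is chr11:98412234-98412483 on the plus strand and the Egfr window chr11:16751953-16752202 on the plus strand. Capitals mark matches on either strand to any of 4 motifs: the retinoic acid receptor half-site AGGTCA, the E-box CAGGTG that SNAI1 binds, the AP-2 motif GCCNNNGGC and the GC box GGGCGG.
Erbb2: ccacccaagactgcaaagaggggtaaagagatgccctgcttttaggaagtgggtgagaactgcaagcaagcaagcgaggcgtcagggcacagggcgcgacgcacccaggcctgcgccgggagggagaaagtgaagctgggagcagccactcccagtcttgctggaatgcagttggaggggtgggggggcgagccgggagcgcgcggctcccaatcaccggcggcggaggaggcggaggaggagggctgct
Egfr: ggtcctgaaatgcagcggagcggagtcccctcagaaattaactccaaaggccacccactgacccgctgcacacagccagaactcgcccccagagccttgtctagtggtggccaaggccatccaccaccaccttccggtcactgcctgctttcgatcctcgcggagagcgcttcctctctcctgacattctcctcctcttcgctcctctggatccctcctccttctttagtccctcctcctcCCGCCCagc
The Erbb2 window held 0 matches to each motif, and the Egfr window 1 match, to the GC box. Among 32851 windows of this length, 14.0% held the half-site, 17.2% the E-box, 13.7% the AP-2 motif and 32.7% the GC box. A window without a match says only that these letters are not in these 250 bases.

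Egfr and Erbb4 showed no RA difference beyond the error of the fit. The Egfr signal was 5.04, 5.31 and 5.35 in shCT cells without RA and 5.27, 5.34 and 5.42 with RA. In shLOXL2 cells it was 5.28, 5.13 and 5.35 without RA and 5.12, 5.23 and 5.15 with RA. Over all 12 arrays it moved by only 0.38 log2 units, the smallest range among the 5 genes. The RA difference on average was 0.01 ± 0.0865, with an interval from -0.17 to 0.20 (limma adjusted p = 0.957, exact p = 0.885). With RA, all 3 shLOXL2 arrays lay below all shCT arrays, as for 5.88% of genes, at a log2 difference of -0.17 ± 0.122. Without RA the constructs overlapped, and the difference was 0.02 ± 0.122. No neighbours in the order of the group means were separated. These ran from 5.17 ± 0.0573 to 5.34 ± 0.0748 (SD, n = 3), and the lowest and the highest of them belonged to shLOXL2 with RA and shCT with RA.

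Erbb4, the neuregulin receptor with a full kinase, was read below the array medians on all 12 arrays, between 3.35 and 4.18. No background level was set, so a low level and none cannot be told apart. Its signal was 4.18, 3.35 and 3.40 in shCT cells without RA and 3.81, 3.81 and 3.93 with RA. In shLOXL2 cells it was 3.66, 3.75 and 3.53 without RA and 3.44, 3.90 and 3.58 with RA. Arrays with and without RA overlapped in both constructs, as did the constructs in both RA states, and replicate 1 of shCT without RA, the array farthest out on the axis, was the highest of all. Without it the RA difference of Erbb4 in shCT cells went from 0.20 to 0.47 (limma adjusted p = 0.121) and that on average from 0.10 to 0.23 (limma adjusted p = 0.206). The RA difference on average was 0.10 ± 0.139 (interval -0.20 to 0.40, limma adjusted p = 0.757, exact p = 0.535), and the knockdown difference was -0.11 ± 0.139.

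Nrg1 had the largest spread within groups of the 5 genes (pooled SD 0.33). Its log2 signal was 6.58, 6.49 and 6.11 in shCT cells without RA and 6.83, 6.19 and 6.06 with RA. In shLOXL2 cells it was 6.62, 6.23 and 6.06 without RA and 6.47, 5.99 and 5.78 with RA. In each of the 4 groups the array numbered 1 was the highest and the array numbered 3 the lowest. The number 1 arrays lay 0.34 above their group means on average (0.18 to 0.47) and the number 3 arrays deviated by -0.28 (-0.30 to -0.24). The same number was highest, and the same number lowest, in all 4 groups for 74 of 22180 genes (0.334%), and for none of the other members. Numbers without any link between groups would be expected to give such an order in no smaller a share of genes. The order of Nrg1 is therefore a description, and this share does not test it. What the numbers stand for is not given in the labels, and this pattern was noticed in the values. The RA difference of Nrg1 on average was -0.13 ± 0.163 (interval -0.48 to 0.23, limma adjusted p = 0.726, exact p = 0.49). In shCT cells the RA differences of Nrg1 between arrays of equal number were 0.26, -0.30 and -0.05. In shLOXL2 cells Nrg1 was lower with RA in all 3 pairs, by log2 differences of -0.15, -0.24 and -0.28. With the number as a block within constructs that difference was -0.22 ± 0.125 and did not pass (limma adjusted p = 0.351). Its knockdown difference was -0.19 ± 0.163 on average and -0.28 ± 0.231 with RA. Between arrays of equal number the differences with RA were -0.36, -0.20 and -0.28. Over all genes, however, the deviations of these paired arrays correlated at only -0.309, 0.197 and -0.216. Without the 4 arrays at one end of the axis the values were -0.51 on average and -0.63 with RA, but that fit sets numbers 1 and 2 of shCT against numbers 2 and 3 of shLOXL2, so knockdown and the number order of Nrg1 cannot be told apart in it.

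**Figure D2:**
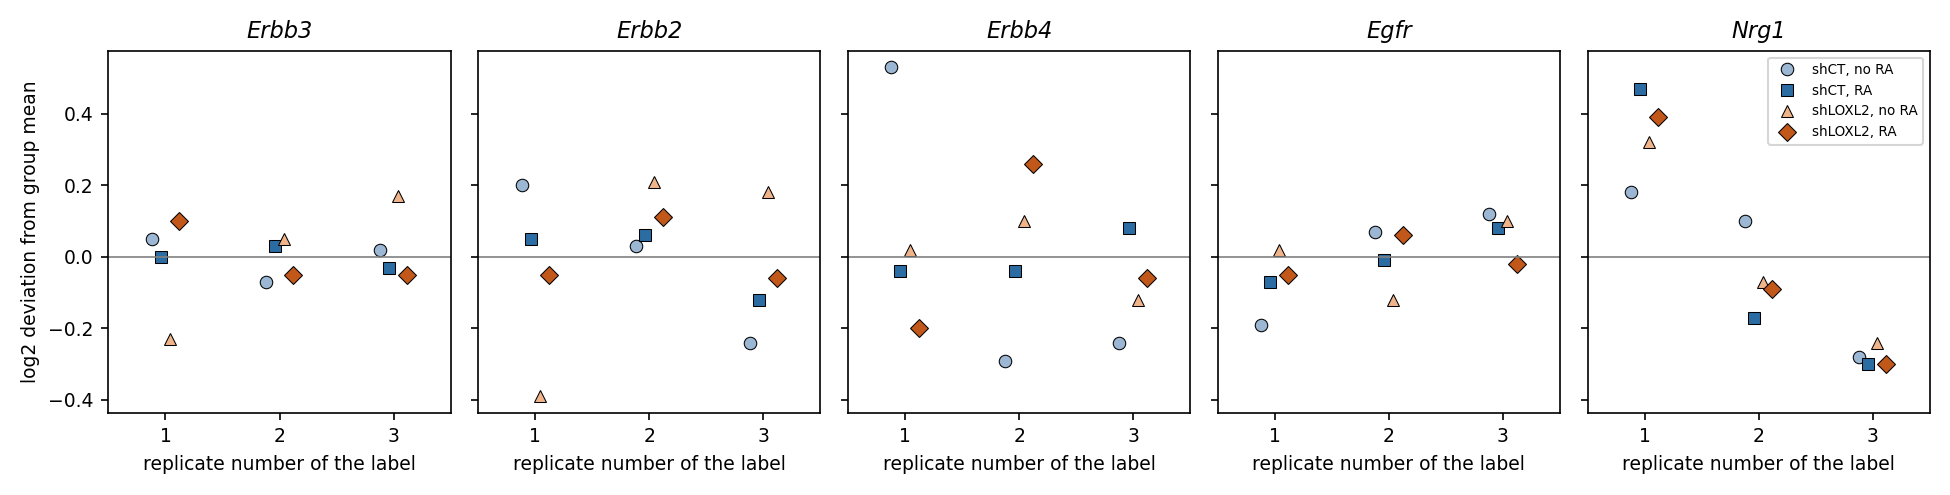
Deviation of each array from its group mean, in log2 units, against the replicate number in the label, for the 5 genes; symbols and colours mark the 4 groups. For Nrg1 the number 1 arrays lie 0.18 to 0.47 above zero and the number 3 arrays below it in all 4 groups, and no other member shows such an order.

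Across the 5 genes, none passed the threshold for RA in shCT cells, where 4.25% of all genes did. There 1 (Erbb2) had an unadjusted limma p under 0.05, as did 16.5% of all genes. None passed in shLOXL2 cells, where 3.46% of genes did, and 1 (Erbb3) had an unadjusted limma p under 0.05, as did 14.4% of all genes. With the number as a block within constructs 1624 genes passed in shLOXL2 cells in place of 768, again with no member. With construct and number as a random block instead, 1 member passed there, Erbb3 (0.40, limma adjusted p = 0.0409). On average of both constructs none passed beside 10.3% of genes, and Erbb3 and Erbb2 had an unadjusted limma p under 0.05, as did 22.2% of all genes. With 5 members, these counts do not set the members apart from all genes. No gene in the table (0%) passed for a different RA response between constructs, while 652 had an unadjusted limma p under 0.05 and none of these was a member. The median RA difference on average was 0.10 over the members and -0.01 over all genes. For knockdown 0% of genes passed within either RA state, with 1037 at an unadjusted limma p under 0.05 without RA and 1100 with RA.

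**Figure D3:**
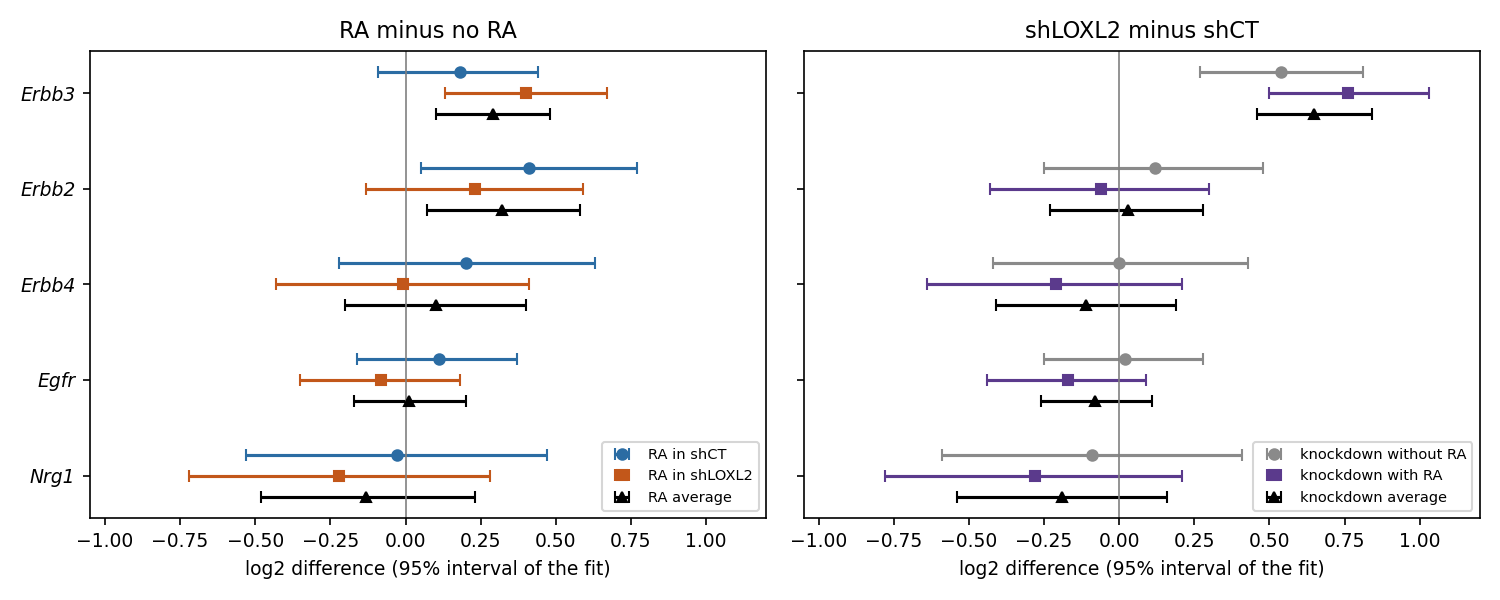
Log2 differences of the 5 genes with 95% intervals of the limma fit, on the left for RA against no RA in each construct and on average, on the right for shLOXL2 against shCT in each RA state and on average. The knockdown differences of Erbb3, for which the set was picked, are 0.54, 0.76 and 0.65. The intervals on the right describe the fit and test nothing, because knockdown values led to the choice of the set.

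The other ligands of the family had small RA differences too. Of 11 EGF family ligands 10 were measured, Nrg1 included, and none passed the threshold for RA in either construct or on average. Their differences on average of both constructs ran from -0.15 (Epgn, the gene of epigen) to 0.26 (Nrg2, a second neuregulin), with a median of -0.05. At an unadjusted limma p under 0.05 there was 1 in shCT cells, Tgfa (0.44 ± 0.157, limma adjusted p = 0.155), beside 16.5% of all genes. There was none in shLOXL2 cells and none on average. Of 10 genes that cut or route the ligands and receptors, 2 fell and 1 rose with RA on average. Adam19, a metalloprotease that can process neuregulin, fell by 1.08 ± 0.0936 (limma adjusted p = 5.48e-06). Its signal was 6.61, 6.35 and 6.47 in shCT cells without RA and 5.47, 5.40 and 5.44 with RA. In shLOXL2 cells Adam19 fell by 1.12 ± 0.132. Rhbdf1, which guides ADAM17 to the cell surface, fell by 0.35 ± 0.0842 (limma adjusted p = 0.0172), a call lost without replicate 1 of shCT with RA. Adam10 rose by 0.52 ± 0.154 (limma adjusted p = 0.0459), a call lost in 10 of 22 alternatives.

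Among 18 adaptors and proximal signalling genes 3 rose with RA on average and none fell. Pik3r1 and Pik3r3, regulatory subunits of the PI3 kinase that docks on ERBB3, rose by 0.84 ± 0.126 and 0.95 ± 0.146 (limma adjusted p = 0.000613 and 0.000814). Sos2, an exchange factor that activates RAS, rose by 0.93 ± 0.156 (limma adjusted p = 0.00155). The signal of Pik3r3 was 5.09, 5.49 and 5.77 in shCT cells without RA and 6.14, 5.81 and 6.48 with RA. In shLOXL2 cells it was 5.94, 5.68 and 5.80 without RA and 7.31, 6.73 and 6.99 with RA. Arrays with RA lay above those without in both constructs. Grb2 and Gab1, adaptors of the same receptors, stood at 0.01 ± 0.0956 and -0.02 ± 0.0777. Of 13 negative regulators measured 2 rose and 2 fell, and with any 1 array left out 2 to 3 of the 13 passed. The count was 2 without replicate 2 or 3 of shLOXL2 without RA, replicate 1 of shLOXL2 with RA, replicate 2 of shCT without RA or replicate 3 of shCT with RA. Lrig1, which marks ERBB receptors for degradation, rose by 0.55 ± 0.0965 (limma adjusted p = 0.00228), and its relative Lrig3 fell by 0.51 ± 0.113 (limma adjusted p = 0.00958). Ptprj, a receptor phosphatase, fell by 0.28 ± 0.0809 (limma adjusted p = 0.0443). Nf1, a RAS inactivator, rose by 0.47 ± 0.120 (limma adjusted p = 0.0239), and the call was lost in 7 of 22 alternatives. Errfi1, a direct inhibitor of EGFR, stood at 0.24 ± 0.0781 and did not pass (limma adjusted p = 0.0764).

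Further down the pathway, 12 of 18 genes of the RAS-ERK and PI3K-AKT cascade were measured, and 2 rose on average, Stat5b by 0.57 ± 0.127 (limma adjusted p = 0.0106) and Gsk3b, whose call was lost in 13 of 22 alternatives. Of 15 ERK target and feedback genes 6 fell and 4 rose, with a median of -0.23. Egr1, an immediate early gene, fell by 1.70 ± 0.105, the ERK feedback inhibitor Spry2 by 0.90 ± 0.124 and the ETS factor Etv5 by 0.71 ± 0.101 (limma adjusted p at most 0.000393). Dusp6, a phosphatase of ERK, rose by 0.71 ± 0.123, so the list did not move one way. Of 37 other receptor tyrosine kinases 11 rose and 4 fell. Pdgfrb rose by 1.28 and Fgfr2 by 1.03, and the ephrin receptor Epha4 fell by 0.99. Of 11 transcription factors linked to Erbb3, 4 fell and 1 rose. With 1 array left out 3 to 5 passed, and the 3 came without replicate 2 of shCT without RA, replicate 1 or 3 of shCT with RA, replicate 2 of shLOXL2 without RA, or replicate 2 or 3 of shLOXL2 with RA. Foxd3, a factor of pluripotent and neural crest cells, fell by 1.89 ± 0.110 (limma adjusted p = 1.56e-07), Ctbp2 by 0.53 ± 0.116 and Foxo1 by 0.32 ± 0.0747. The Foxo1 call was lost, at -0.15, when its clusters were averaged, and the Ctbp2 call without the 4 arrays at one end of the axis. In all, 42 of 125 genes of these lists other than the members (33.6%) passed for RA on average, 24 upward and 18 downward, with a median of 0.08, beside 10.3% and -0.01 over all genes. Of these calls, 15 were other receptor tyrosine kinases and 10 were ERK target and feedback genes. The lists were chosen with earlier results of these data known and were not matched to all genes in signal. The shares are therefore a description and not a test of the lists. Without the 4 arrays at one end of the axis 35 of 125 passed, 20 upward and 15 downward.

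**Figure D4:**
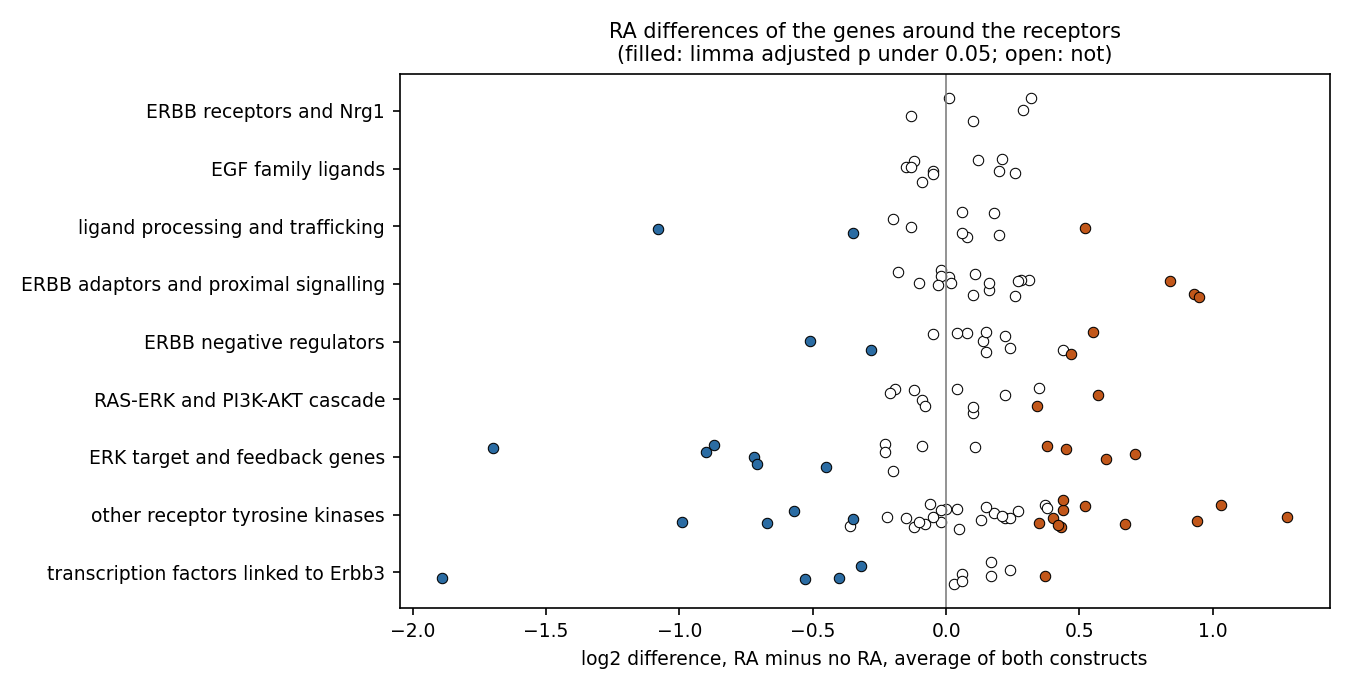
Log2 difference between RA and no RA, averaged over both constructs, for each measured gene of the lists around the receptors (vertical position within a row carries no value); filled points have a limma adjusted p under 0.05 (orange higher, blue lower). The 5 receptors and ligand genes in the top row lie between -0.13 and 0.32 with no filled point, while single genes of other rows reach from -1.89 to 1.28.

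Some markers of the cell types examined changed with RA on average, where 10.3% of all genes passed. Of 8 stem cell markers 4 fell, and of 7 neural crest markers 1 fell (Ngfr, by 0.51). The mean signal of 7 trophectoderm and epithelial markers ran from 5.01 to 5.32 over the arrays without RA and from 5.36 to 5.58 over those with RA, and 2 of the 7 rose, Cdx2 and Krt18. The Krt18 call (0.44 ± 0.131, limma adjusted p = 0.0461) was lost in 14 of 22 alternatives. Of 7 primitive endoderm markers 2 rose on average of both constructs, Gata6 by 1.63 and Pdgfra, whose call was lost in 6 of 22 alternatives. The median of the 7 was 0.25. Cdx2, a trophectoderm factor, rose by 0.63 on average of both constructs. Of 6 neural progenitor markers 3 rose and 1 fell, with Msi1 and Sox1 rising by 0.92 and 0.82 and Ncam1 falling (-0.50 ± 0.103, limma adjusted p = 0.00641). None of 7 fibroblast markers passed (limma, 1 at an unadjusted p under 0.05, beside 22.2% of all genes), and 3 of them lay below the lowest array median. The part of other cell types in the values of Erbb3 and Erbb2 with RA was not tested.

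None of the 125 genes around the receptors passed the threshold for LOXL2 knockdown on average, within either RA state, or for a different RA response. At an unadjusted limma p under 0.05 there were 13 of 125 on average, 13 without RA, 8 with RA and 4 for the difference in RA response. These are 10.4%, 10.4%, 6.4% and 3.2% of the 125 genes, beside 6.72%, 4.68%, 4.96% and 2.94% of all genes (1490, 1037, 1100 and 652 genes). The nearest on average were Egr1 (-0.56 ± 0.105, limma adjusted p = 0.0916), the collagen receptor gene Ddr2 (0.55 ± 0.125, limma adjusted p = 0.207) and Pik3r3 (0.61 ± 0.146, limma adjusted p = 0.233), of which Ddr2 is named after its values were seen. The Egr1 difference was -0.98 ± 0.149 without RA (limma adjusted p = 0.167) and -0.14 ± 0.149 with RA. The ligand with the largest knockdown difference upward was Hbegf, whose product binds EGFR and ERBB4, at 0.26 ± 0.144 (limma adjusted p = 0.801). The medians of the 125 genes and of all genes were 0.01 and 0.00.

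The nearest genes by correlation over the 12 arrays, ranked with the same kinds of symbols left out as for Erbb3, differed for each member. For Erbb2 they were Gpx7 (0.958), Fam83d (0.942) and Tle5 (0.942), and Gpx7, a glutathione peroxidase, had an RA difference of 0.33 ± 0.126 on average. For Erbb4 they were Fgf23 (0.932), Dscaml1 (0.925) and Otof (0.918). For Egfr they were Agr2 (0.842), Zfp112 (0.814) and Gbp3 (0.811), and for Nrg1 they were Klb (0.893), Cubn (0.865) and Nxf1 (0.851). No gene was shared between these lists, and all values rest on the same 12 arrays.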

How the data were processed

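Total RNA of 12 samples was extracted with Trizol and hybridised after Affymetrix whole-transcript labelling, per the labels. Signals on a log2 scale were deposited for 41345 transcript clusters. The submitters' processing notes list RMA, R 3.1.1 and limma without their roles. The genome build and background correction are not given in the sources used here, and normalization between arrays hides shifts common to most genes. The number of arrays limits the precision.

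Gene names came from the platform annotation, updated by RefSeq gene identifier (23328 of 23521 clusters with 1 gene matched). Clusters with several genes (1814) or unnamed here (16010) were left out, and the brightest cluster stood for a gene, which gave 22180 genes. Exact permutation was run only for the members, and only for RA on average of both constructs.

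Differences were tested with limma 3.58.1 (R 4.3.3, statmod 1.5.0) in 1 fit of 4 group means over 12 arrays, with 7 contrasts. Adjustment was by Benjamini-Hochberg over all genes, with a threshold of 0.05. The fit was also run on simulated arrays with independent noise, so that run does not cover scatter shared between arrays. The members, 8 gene lists, 6 marker lists and named genes (up to 3 with the smallest p past the threshold per list and RA contrast, the nearest genes by correlation) were chosen with earlier results of these data known. Sox10, Tfap2a, Ddr2, Hbegf, Tgfa, Epgn, Nrg2, Ptprj, Dusp6, Grb2, Gab1, Errfi1, Gata4 and Dab2 were named after their values were seen. List genes with no cluster of their own were not analysed here. Alternatives were a replicate block, a random block for construct and number, variance trend, a filter on dim genes, further quantile normalization, median centring, mean of clusters, all clusters, only the groups compared, and leaving out each array. A fixed block within constructs and a fit without 4 arrays were added after seeing the data. Arrays of equal number deviated together in shLOXL2 (correlations 0.558, 0.248 and 0.216) but not in every pair of shCT (0.363, 0.0394 and 0.631). Between constructs correlations fell to -0.55. The main fit paired no numbers. The fixed block within constructs and the random block paired them in both constructs, and the replicate block across all 4 groups. Nrg1 was also compared between arrays of equal number, within and across constructs.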

Additional observations from a re-analysis of the deposited data

How the results depend on the processing

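No called result reversed its direction under the alternatives run. The RA difference of Erbb3 on average (0.29) passed with the random block (limma adjusted p = 0.0197, and 0.0409 for its 0.40 in shLOXL2 cells) and without dim genes (0.29, limma adjusted p = 0.0241), where fewer genes were tested. It ran from 0.23 to 0.33 with 1 array left out. That of Erbb2 (0.32) passed with the random block (limma adjusted p = 0.0347) and the fixed block within constructs (0.0403). The members past the threshold were accordingly 2 with the random block, 1 without dim genes, 1 with the fixed block and 0 to 1 with 1 array left out for RA on average, and 1 with the random block in shLOXL2. The cause was not tested.

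The counts over all genes moved more. For RA in shCT they were 2047 with the random block, 1800 with the fixed block, 599 with only the groups compared and 483 to 1049 with 1 array left out. For RA in shLOXL2 they were 1675, 1624 and 444 to 916 (random, fixed, 1 array left out), and for RA on average 3871 and 3677 (random, fixed). For knockdown on average, 12 genes became 1 with the replicate block, 0 with the random block, 22 with the variance trend, 27 without dim genes, 1 over all clusters, 0 to 19 with 1 array left out and 37 without the 4 arrays. The replicate block left RA in shCT at 740 genes and RA in shLOXL2 at 658 with no member called, and it took the error of Nrg1 for RA on average from 0.163 to 0.0917. Without the 4 arrays the knockdown difference of Erbb3 without RA was 0.66 and that of Nrg1 with RA was -0.63 (-0.51 on average). That fit leaves numbers 1 and 2 of shCT and 2 and 3 of shLOXL2, so for Nrg1 knockdown and replicate number cannot be told apart in it. Erbb4 lies below the median, so the fit without dim genes gave no value for it. The fixed block gave none for knockdown.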
